A study of Mus musculus with 8 samples.

Results

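Glucose-responsive genes and targets of ChREBP were followed in mouse liver through 8 genes, Mlxipl, Slc2a2, Pklr, Khk, Gpd1, Pnpla3, Txnip and Rgs16. All probe sets that the platform annotation pairs with exactly 1 of these genes were taken, 16 of the 22690 probe sets on the array. The 8 genes are among 12393 genes with such a probe set. Probe sets of Mlx and Rgs14, whose symbols are among the older names of Mlxipl and Rgs16, belong to other genes by identifier and were not counted as members. The genes were chosen by their place in this pathway with the differences between the genotypes on these 8 arrays already known, and Txnip and Rgs16 had been among the genes called lower in the null livers. Their differences between the genotypes are therefore given as a description, and neither the calls nor their number are support for anything.

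Livers came from female mice on a C57BL/6J background, 4 weeks old, 4 of them labelled WT and 4 labelled TrxR1/Gsr-null, with 1 array per animal. The null livers are named as lacking thioredoxin reductase 1 (TrxR1, gene Txnrd1) and glutathione reductase (Gsr), the NADPH-dependent enzymes that keep thioredoxin and glutathione reduced. The sources used here do not state the promoter of any Cre transgene, the cells in which the genes were deleted or the feeding state of the animals. The livers were collected late in the morning. The scale is log2 expression from GCRMA, on which a difference of 1 is a factor of 2. Levels of different probe sets cannot be set against each other.

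ChREBP, the product of Mlxipl, is a transcription factor that senses glucose. When hexose phosphates build up in hepatocytes it moves to the nucleus, pairs with Mlx and binds carbohydrate response elements, pairs of E-box-like half-sites with a short spacer between them. Its targets lead glucose and fructose carbon into glycolysis, glycerol phosphate and fat, and include Txnip, whose product binds reduced thioredoxin and limits glucose uptake.

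The Gsr probe sets were lower in the null livers (log2 differences -1.15 and -1.17), and the Txnrd1 probe set above background was higher (2.11), with WT values from 9.56 to 9.93 and null values from 11.65 to 12.07. The deleted part of each gene is not stated in the labels, and probe sets outside a deletion check no label. WT replicates 3 and 4 had narrower value distributions (interquartile ranges 3.97 and 3.74 against 4.31 to 4.44 on the other 6 arrays). With TrxR1/Gsr-null replicate 3 they also had the widest gap between the 3′ and 5′ Actb probe sets, a sign of RNA quality (1.498, 1.57 and 1.76 against 1.01 to 1.17). The 7 measured hepatocyte markers, all above the low-value limit of 3.38, had a summed level of 16.01 to 16.28 in WT and 15.40 to 15.95 in the null livers, with all 7 differences below 0 and none called. Summed macrophage markers (12.29 to 13.08 and 12.00 to 12.53), endothelial markers (10.77 to 11.10 and 10.66 to 11.05) and stellate cell markers (12.46 to 12.77 and 12.16 to 12.57) overlapped, with none called. Among tested markers, differences were below 0 for 5 of 7 macrophage, 5 of 7 endothelial and 5 of 6 stellate cell genes, with medians of -0.49, -0.37 and -0.16 against -0.39 for the hepatocyte markers. The hepatocyte gene Ttr, the macrophage genes Clec4f and Vsig4, the endothelial gene Stab2 and the stellate cell gene Dcn had all null values below all WT values. The same held for 5.84% of all genes tested. The leukocyte gene S100a8 had all null values above all WT values (WT 3.14 to 5.12, null 5.27 to 5.57) and was not called (limma adjusted p = 0.0541). The same held for Epcam, and for 10.7% of all genes. The bile duct markers Krt19, Krt7 and Cftr and the lymphocyte markers Cd8a and Ighm failed the filter on low values, with 1 or 2 of 8 arrays above the limit, and Cd3e and Cd79a had none above it. Summed bile duct markers ran from 5.28 to 5.82 and from 5.24 to 5.61, and summed leukocyte markers from 7.47 to 7.89 and from 7.78 to 8.19. The bile duct gene Epcam was called higher (WT 2.51 to 3.31, null 3.36 to 4.11). All its WT values were below the low-value limit, and 3 of 8 arrays were above it. The part of cell composition and of RNA quality in the results below was not tested. In bulk liver, fewer cells of a type and less RNA per cell cannot be told apart.

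Promoters are shown for the 4 members that were called, because the element that ChREBP binds is known by its letters. RefSeq windows on GRCm38.p6, 250 bases before to 50 after each start, matched 7 of the 8 genes, with 9 windows in all, and held none for Gpd1. Each window was searched on both strands for the E-box CACGTG and for paired half-sites. A pair was CACGNG followed after 5 bases by CNCGTG (inverted) or by a second CACGNG (direct), where N is any base. These patterns overlap, since a CACGTG can be part of a pair. Capitals mark matches, and all windows shown lie on the + strand.
Pklr, downstream start (chr3:89136373-89136672): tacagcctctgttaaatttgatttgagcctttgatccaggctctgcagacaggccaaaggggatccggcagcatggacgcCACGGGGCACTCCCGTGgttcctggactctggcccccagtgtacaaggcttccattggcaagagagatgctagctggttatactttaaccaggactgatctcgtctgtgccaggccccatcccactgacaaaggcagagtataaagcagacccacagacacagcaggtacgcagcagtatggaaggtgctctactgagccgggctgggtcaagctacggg
Txnip (chr3:96557707-96558006): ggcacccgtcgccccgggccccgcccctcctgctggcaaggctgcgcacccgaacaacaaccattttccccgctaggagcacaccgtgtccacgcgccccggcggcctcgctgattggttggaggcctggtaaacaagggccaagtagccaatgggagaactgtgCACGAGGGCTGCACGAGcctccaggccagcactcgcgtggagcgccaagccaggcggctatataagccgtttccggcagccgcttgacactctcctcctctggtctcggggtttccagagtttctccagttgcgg
Rgs16 (chr1:153740103-153740402): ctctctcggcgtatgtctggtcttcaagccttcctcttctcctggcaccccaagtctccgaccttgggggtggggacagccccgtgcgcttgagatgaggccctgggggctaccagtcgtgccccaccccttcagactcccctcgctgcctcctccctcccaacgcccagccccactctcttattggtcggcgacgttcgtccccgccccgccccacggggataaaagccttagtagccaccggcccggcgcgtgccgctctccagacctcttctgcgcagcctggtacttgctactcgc
Slc2a2 (chr3:28697653-28697952): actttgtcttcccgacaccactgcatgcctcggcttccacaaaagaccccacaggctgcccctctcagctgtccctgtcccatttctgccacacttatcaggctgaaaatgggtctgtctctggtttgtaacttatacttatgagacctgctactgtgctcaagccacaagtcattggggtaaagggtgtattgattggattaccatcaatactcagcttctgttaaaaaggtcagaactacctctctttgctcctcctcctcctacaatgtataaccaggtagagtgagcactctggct
The Pklr window held an inverted pair, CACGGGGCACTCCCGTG, 170 to 154 bases before the start, and the Txnip window held a direct pair, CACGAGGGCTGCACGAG, 85 to 69 bases before it. Either pair was found in 24 of 32851 windows of this length, 0.0731% (0.0457% for the inverted and 0.0487% for the direct form). Pklr and Txnip are textbook examples from which such patterns are known, so these matches are not independent of the search. The upstream window of Pklr and the windows of Rgs16, Slc2a2 and Pnpla3 held no match to these letters. A single E-box, found in 7.15% of all windows, stood in the window of Khk and in 1 of 2 windows of Mlxipl, shown with 7 bases on each side.
Mlxipl, upstream start (chr5:135089640-135089939), 98 to 93 bases before it: tgccatcCACGTGctaagga
Khk (chr5:30921309-30921608), 71 to 66 bases before the start: tccccgtCACGTGacaccgt
Of 12 other ChREBP targets with a window, none held a pair and 2, Fgf21 and Arrdc4, held an E-box. A match is a description of the letters and not of binding.

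The comparison of genotypes asked how the 8 genes stood in livers without TrxR1 and Gsr. Rgs16, Pklr, Txnip and Slc2a2 were called lower in the null livers and none of the 8 was called higher, where a call is a limma adjusted p below 0.05 over all genes tested. Of 7534 genes tested, 2.15% were called lower, 4.47% higher and 6.62% in either direction. The members were chosen with this contrast known, so nothing is read from the 4 calls against that share. Mlxipl, Khk and Gpd1 were tested and not called, and Pnpla3 did not pass the filter on low values. All 7 tested differences were below 0, as were 39.9% of those of all genes, with a median of -0.85 against 0.10 over all genes. All 4 null values lay below all 4 WT values for the 4 called genes, and for 5.84% of all genes. The reverse, all null values above all WT values, held for none of the 7 and for 10.7% of all genes.

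**Figure D1:**
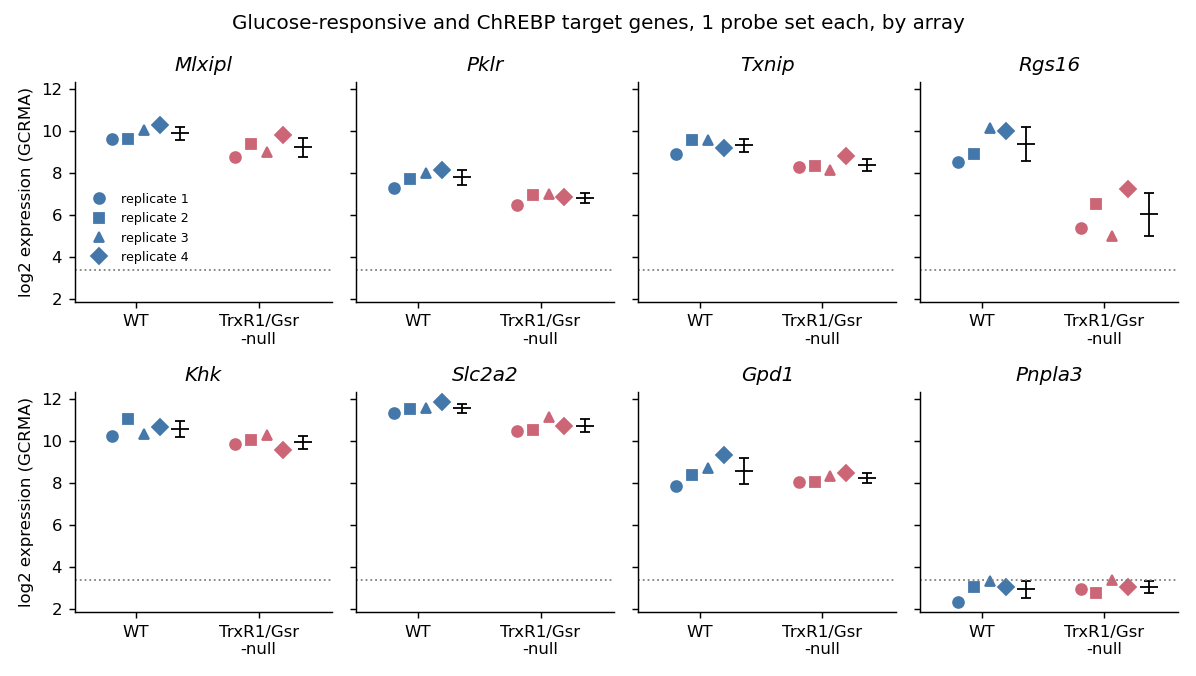
Log2 expression (vertical axis, the same in all panels) of the probe set with the highest mean for each of the 8 genes, in 4 WT and 4 TrxR1/Gsr-null livers. Points are arrays, with the marker giving the replicate number, and the bar gives the mean ± SD. The dotted line is the low-value limit of 3.38. The groups are apart for Pklr, Txnip, Rgs16 and Slc2a2, and overlap for the other 4 genes.

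Mlxipl, the glucose sensor itself, was read by 1 probe set (1419185_a_at). WT replicates 1 to 4 read 9.61, 9.62, 10.02 and 10.26, and null replicates 1 to 4 read 8.75, 9.39, 8.98 and 9.79. Null replicate 4 lay within the WT range and the other 3 below it. The group means were 9.88 ± 0.32 and 9.23 ± 0.46 (SD, n = 4 each), a difference of -0.65 ± 0.26 (SE) that was not called (limma adjusted p = 0.171). Its 95% interval, not adjusted for the number of genes, ran from -1.23 to -0.07.

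Slc2a2 encodes GLUT2, the carrier that passes glucose and fructose into and out of hepatocytes. Its single probe set (1449067_at) read 11.32, 11.53, 11.56 and 11.86 in WT and 10.50, 10.53, 11.17 and 10.71 in the null livers. Null replicate 3 was the highest of its group and still 0.16 below the lowest WT array. Slc2a2 fell 1.80-fold, from 11.57 ± 0.22 to 10.72 ± 0.31 (SD, n = 4 each; log2 difference -0.85 ± 0.21 SE), with a limma adjusted p of 0.0381. The call was lost without WT replicate 2, 3 or 4 (adjusted p = 0.0744, 0.0863 and 0.0785) and without null replicate 1, 2 or 4 (0.11, 0.121 and 0.0904). Without both WT replicates 3 and 4 the difference was -0.70 (adjusted p = 0.146).

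Pklr, the pyruvate kinase of liver, makes pyruvate in the last step of glycolysis and carries the inverted pair shown above. Its brightest probe set (1438711_at) read 7.30, 7.72, 7.98 and 8.15 in WT and 6.47, 6.94, 6.99 and 6.88 in the null livers. WT replicate 1, the lowest of its group, was 0.32 above the highest null array. Pklr fell 1.96-fold, from 7.79 ± 0.37 to 6.82 ± 0.24 (SD, n = 4 each; log2 difference -0.97 ± 0.22 SE), with a limma adjusted p of 0.0308. The call was lost without WT replicate 2, 3 or 4 (adjusted p = 0.0593, 0.0851 and 0.063), without null replicate 1, 2 or 4 (0.0915, 0.0717 and 0.0693), and without both WT replicates 3 and 4 (0.136, difference -0.69). The other Pklr probe sets differed by -1.14, with overlap between null replicate 3 at 6.33 and WT replicate 1 at 5.91, and by -0.61, without overlap and near the low-value limit (WT 3.87 to 4.27, null 3.24 to 3.67). Neither was called in a fit of all 22626 probe sets other than controls (adjusted p = 0.142 and 0.0857).

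Khk encodes ketohexokinase, which phosphorylates fructose. Its probe set (1449062_at) read 10.24, 11.06, 10.33 and 10.70 in WT and 9.87, 10.05, 10.31 and 9.59 in the null livers. Only null replicate 3 reached into the WT range. The means were 10.58 ± 0.38 and 9.95 ± 0.30 (SD, n = 4 each), a difference of -0.63 ± 0.24 (SE, 95% interval -1.16 to -0.10) that was not called (limma adjusted p = 0.15), although it was with array weights (adjusted p = 0.0431).

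Gpd1, the cytosolic glycerol-3-phosphate dehydrogenase, links glycolysis to the glycerol backbone of triglyceride. Its brightest probe set (1448249_at) read 7.88, 8.40, 8.72 and 9.34 in WT and 8.08, 8.04, 8.37 and 8.51 in the null livers. The null values lay inside the WT range. The means were 8.58 ± 0.61 and 8.25 ± 0.22 (SD, n = 4 each), with a difference of -0.34 ± 0.29 (SE, 95% interval -0.98 to 0.31) and a limma adjusted p of 0.534. Leaving out WT replicates 3 and 4 turned it to 0.11. A further Gpd1 probe set differed by 0.04 (WT 5.73 to 6.36, null 5.88 to 6.49), and the last 2 had no array above the low-value limit. A difference in Gpd1 was not detectable at the spread of these arrays.

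Pnpla3, a lipid droplet hydrolase also called adiponutrin, was near background. Its probe set (1420655_at) read 2.36, 3.05, 3.33 and 3.09 in WT and 2.97, 2.77, 3.42 and 3.08 in the null livers. One of the 8 arrays, null replicate 3, exceeded 3.38, so the gene was left out of the gene fit. Without the filter its difference was 0.10 (limma adjusted p = 0.858), and a difference in Pnpla3 was not detectable at this signal.

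Txnip, the thioredoxin-binding arrestin-like protein and bearer of the direct pair shown above, had both of its probe sets lower in the null livers without overlap. The brighter (1415996_at) read 8.88, 9.57, 9.57 and 9.21 in WT and 8.27, 8.31, 8.15 and 8.80 in the null livers. The gap was narrow, 0.08 between WT replicate 1 and null replicate 4. Txnip fell 1.89-fold, from 9.31 ± 0.33 to 8.38 ± 0.29 (SD, n = 4 each; log2 difference -0.92 ± 0.22 SE), with a limma adjusted p of 0.0369. The fainter probe set (1415997_at) read 4.44, 4.86, 5.83 and 4.34 in WT and 3.42, 3.70, 3.61 and 4.11 in the null livers, a difference of -1.15 that was not called in the fit of all probe sets (adjusted p = 0.0974). The call of the brighter one was lost without WT replicate 2, 3 or 4 (adjusted p = 0.0908, 0.0994 and 0.0592) or null replicate 1, 2 or 3 (0.102, 0.105 and 0.0904), and without both WT replicates 3 and 4 (0.131, difference -0.84).

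Rgs16 encodes an accelerator of the GTPase of G protein alpha subunits, and in liver it is known to follow feeding and the time of day. It had the steepest fall of the members. The brightest of its 3 probe sets (1455265_a_at) read 8.51, 8.88, 10.15 and 9.99 in WT and 5.37, 6.54, 5.01 and 7.23 in the null livers. The next (1426037_a_at) read 7.95, 8.61, 9.22 and 9.01 in WT and 3.82, 6.52, 4.37 and 6.40 in the null livers. The faintest (1451452_a_at) read 4.05, 3.76, 5.04 and 3.81 in WT and lay between 2.58 and 3.02, below the low-value limit, in all 4 null livers. None of the 3 overlapped between groups, with gaps of 1.28, 1.43 and 0.74 between the lowest WT and the highest null array. At the brightest probe set Rgs16 fell 10.2-fold, from 9.38 ± 0.81 to 6.04 ± 1.03 (SD, n = 4 each; log2 difference -3.35 ± 0.52 SE), with a limma adjusted p of 0.00484. The other probe sets differed by -3.42 and -1.34, the last against null values at background, which hold no level. Rgs16 kept its call with any 1 of the 8 arrays left out (differences -3.74 to -3.00, adjusted p up to 0.0196). Without WT replicates 3 and 4 its difference was -2.66 (adjusted p = 0.0396), and it was -2.74 within replicates 1 and 2 and -3.95 within replicates 3 and 4.

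Over the 16 probe sets, 8 had all null values below all WT values, which held for 4.37% of all probe sets other than controls, and 6 were called lower in the fit without a filter, against 0.888% of all. Both counts rest on the contrast known when the genes were chosen. Of the 16, 11 were above the low-value limit on all 8 arrays and 2 on none. The probe sets of Rgs16, of Pklr and of Txnip each had the same sign, and those of Gpd1 did not.

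Among the tested members, the 95% interval of Rgs16 (-4.51 to -2.18) lay below those of the others. Rgs16 was the 4th lowest of the 7534 differences. Pklr, Txnip, Slc2a2, Mlxipl and Khk lay between -0.97 and -0.63, where from 2.35% to 6.21% of genes had a lower difference, and Gpd1 was at 15.4%. The intervals of these 5 genes and of Gpd1 (-0.98 to 0.31) overlap each other, so no order is read among them. Relative to the median of all genes the differences were -3.44 for Rgs16, -1.06 for Pklr, -1.02 for Txnip, -0.94 for Slc2a2, -0.75 for Mlxipl, -0.72 for Khk and -0.43 for Gpd1.

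**Figure D2:**
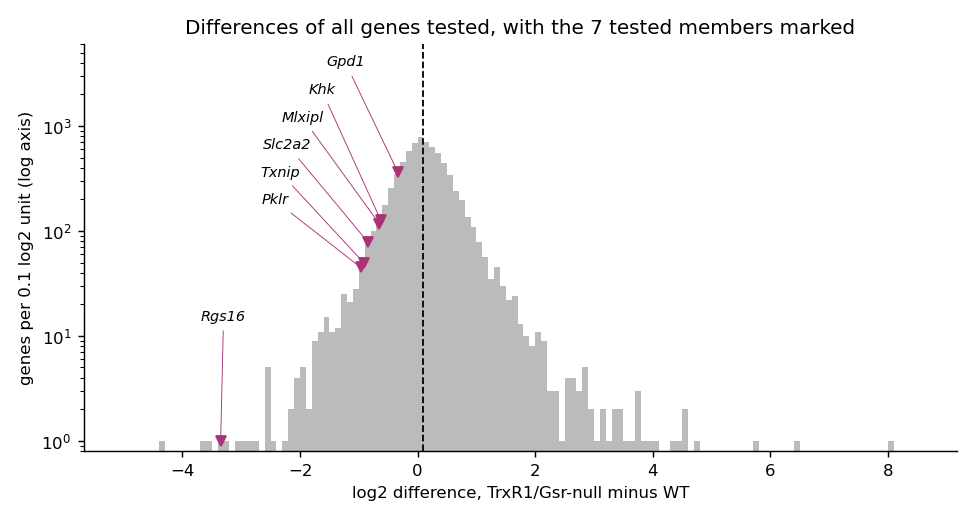
Number of genes (vertical log axis) by log2 difference, TrxR1/Gsr-null minus WT (horizontal axis, bins of 0.1), for the 7534 genes tested, with triangles at the 7 tested members. The dashed line is the median of all genes, 0.10. All 7 members lie to its left, Rgs16 in the far tail.

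Within the WT group the members also shared their lowest array at the probe sets used in the gene fit, given here as a description. WT replicate 1 was the lowest WT array for all 7 tested members, against 13.8% of all genes. For Mlxipl this rests on 9.61 against 9.62. Other probe sets differed, with WT replicate 4 lowest for Txnip 1415997_at (4.34) and Gpd1 1416204_at (5.73), and WT replicate 2 for Rgs16 1451452_a_at (3.76). WT replicate 1 was lowest at the other Pklr probe sets and at Rgs16 1426037_a_at. WT replicate 3 or 4 was the highest for 5 of the 7, against 35.0% of all genes, and these are the arrays with the narrower distributions. In the null group no array stood at one end for all members. Null replicate 1 was lowest for 3 of the 7, against 28.9% of all genes, and replicate 4 was the highest for 4. Same-numbered arrays, which the labels do not state to be pairs, gave a negative difference for 6 members in all 4 such pairs. For Rgs16 the pairs differed by -3.14, -2.35, -5.14 and -2.76, and for Khk by -0.38, -1.01, -0.02 and -1.11. Gpd1 was positive in the first pair (0.20). With 4 arrays per group, correlations between members within a genotype were not computed.

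**Figure D3:**
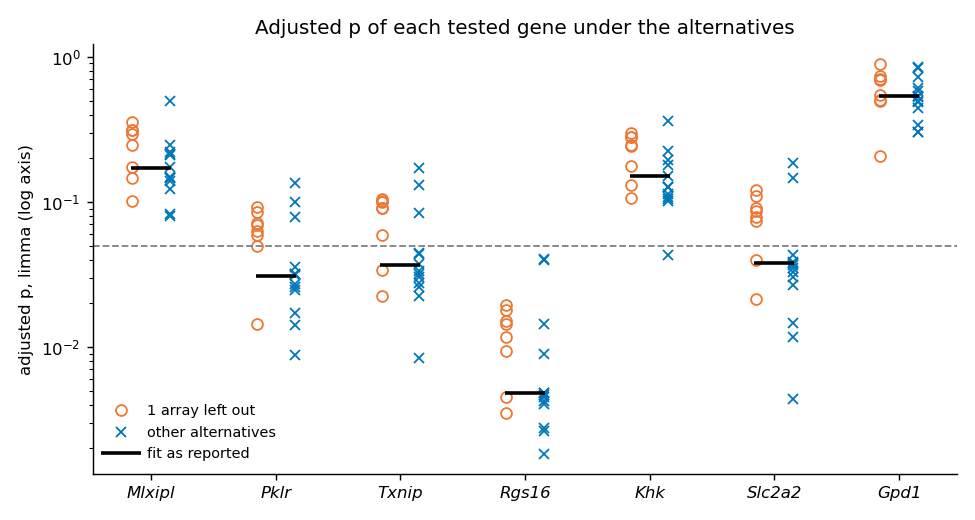
Limma adjusted p (vertical log axis) of the 7 tested members in the fit as reported (bars), with 1 array left out (circles) and under the other alternatives (crosses). The dashed line is the threshold of 0.05. Rgs16 stays below it throughout, and Pklr, Txnip and Slc2a2 lie on both sides.

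By pattern, the genes most like each member were found by the root mean square distance between log2 profiles centred on their own mean, over the 8 arrays. The difference between the genotypes is part of this distance, so genes near a member that fell also tend to fall. Their folds and adjusted p are therefore given as a description. Nearest to Rgs16 was Bhlhe40, a repressor of the circadian clock, at a distance of 0.47. It read 9.00, 9.47, 10.39 and 10.28 in WT and 7.09, 7.71, 6.06 and 8.11 in the null livers, a 5.83-fold fall (limma adjusted p = 0.00889, and 0.0694 without WT replicates 3 and 4). As for Rgs16, WT replicates 3 and 4 were highest and null replicate 3 lowest. These are also the arrays with the widest gap between the 3′ and 5′ Actb probe sets, and the part of RNA quality was not tested. Erdr1 followed at 0.67. Nearest to Txnip were Nfix, a transcription factor (0.18), and Zkscan1 (0.19), and nearest to Slc2a2 were Agt, the angiotensinogen gene (0.11), and Gpt, an alanine aminotransferase (0.12). Pklr was nearest to Cdc42ep4 (0.14) and Man2b1 (0.15), Mlxipl to Dab2 (0.10) and Wdr81 (0.14), Khk to Rnf43 and Sesn1 (0.20 each), and Gpd1 to Scly (0.08) and Cyp4v3 (0.10). Between members the closest pair was Pklr and Slc2a2 (0.20). Nfix fell 1.95-fold (adjusted p = 0.019) and Agt 1.70-fold (adjusted p = 0.0311). The call of Nfix was lost without WT replicate 3 or null replicate 1 (adjusted p up to 0.0594), and that of Agt without WT replicate 2, 3 or 4 or null replicate 1, 2 or 4 (up to 0.0973). Without both WT replicates 3 and 4 neither was called (0.0797 and 0.102). The Nfix difference was -0.97, and -0.62 over the mean of all its probe sets.

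The other genes of these pathways were taken from 11 lists drawn up by known function, with 92 genes tested in all. Of these 92, 6 were called higher and 8 lower, where 4.47% of all genes tested were called higher and 2.15% lower. Their median difference was -0.22, against 0.10 over all genes. An unadjusted limma p below 0.05 was reached by 37 of the 92, against 22.9% of all genes tested. The lists were drawn up with earlier results of these data known. Nothing is therefore read from these counts, or from those of each list below, against the same shares.

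Other targets of ChREBP moved in both directions. Of 17 listed, 15 were tested, with 3 called lower, 2 called higher and 10 not called, and 11 of the 15 differences were below 0 with a median of -0.75. Klf10, a glucose-induced repressor, fell 3.83-fold, with WT values of 7.72, 8.51, 8.47 and 8.35 and null values of 6.13, 6.47, 5.71 and 6.99 (limma adjusted p = 0.00413). Scd1, the stearoyl-CoA desaturase, fell 2.19-fold (13.05 ± 0.27 to 11.92 ± 0.15, SD, n = 4 each; adjusted p = 0.00667), a difference of -1.13 that was -1.74 over the mean of all its probe sets. Fasn, the fatty acid synthase, fell 2.89-fold, from values of 10.39 to 11.42 to values of 8.03 to 9.85 (adjusted p = 0.0452), a call lost with any 1 of the 8 arrays left out (0.0544 to 0.0974) or with no filter on low values (0.0689). Tkt, the transketolase of the pentose phosphate pathway, rose 4.04-fold (6.88 ± 0.28 to 8.90 ± 0.16; adjusted p = 0.000242), and Me1, the cytosolic malic enzyme, rose 2.07-fold (9.17 ± 0.18 to 10.22 ± 0.24; adjusted p = 0.00922). Tkt and Me1 are also known targets of Nrf2, the factor named in the series title. Klf10, Scd1, Tkt and Me1 kept their calls with any 1 array left out and without both WT replicates 3 and 4. Within replicates 3 and 4, Tkt kept its call (limma adjusted p = 0.0205), and Klf10, Scd1 and Me1 lost theirs (0.0665, 0.101 and 0.146). Of the 15, 0 were called lower within replicates 3 and 4, and 7 with array weights. With the replicate number as a block, 5 of the 15 were called lower, G6pc among them (adjusted p = 0.00218, against 0.119 without the block).

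Of the listed factors in the wider network around ChREBP, none of 7 tested was called by limma, and 0 passed an unadjusted p of 0.05. Mlx, its obligate partner, had means of 5.34 ± 1.02 in WT and 5.86 ± 0.15 in null livers (adjusted p = 0.498), with WT replicate 4 at 3.95. Mlxip, the related factor MondoA, averaged 3.89 ± 0.13 and 3.86 ± 0.20 (adjusted p = 0.934).

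Glycolysis beside Pklr had no call among 17 genes tested, with a median difference of 0.10 and 6 differences below 0. At an unadjusted limma p below 0.05, 3 were higher and 1 lower. Hk1 averaged 4.68 ± 0.18 and 4.59 ± 0.26, and Hk2 3.59 ± 0.52 and 3.67 ± 0.29 (SD, n = 4 each). With 1 array left out the counts were 0 to 1 in each direction. Among sugar carriers beside Slc2a2, Slc2a1 was called of 5 tested. It encodes GLUT1, a carrier low in adult hepatocytes, and rose 4.09-fold, from WT values of 7.40, 8.19, 7.01 and 6.11 to null values of 9.40, 9.32, 8.90 and 9.21 (limma adjusted p = 0.0102, with its call kept when any 1 array was left out). Slc2a1 and Slc2a2 thus moved in opposite directions on the same arrays. Around fructose, Aldh1a1, a retinal and aldehyde dehydrogenase, was called higher of 4 tested (1.71-fold, adjusted p = 0.019), lost without null replicate 1, 2 or 4 (up to 0.0562).

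For glycerol phosphate and droplets, calls again went both ways. Lpin1, which makes diacylglycerol from phosphatidate, was called lower of 8 genes tested, at 8.75, 9.30, 8.86 and 9.60 in WT and 5.23, 7.36, 6.32 and 7.38 in the null livers (5.87-fold, adjusted p = 0.00815, and 0.0535 without WT replicates 3 and 4). With the replicate block 2 of the 8 were called lower, the other being Dgat2, an acyltransferase of triglyceride synthesis (adjusted p = 0.0119, against 0.0643 without the block). Of 11 relatives and partners of Pnpla3, Abhd5, the co-activator of the lipase Pnpla2, was called higher (2.25-fold, from 6.22 to 6.52 up to 7.01 to 7.95; adjusted p = 0.0111, and 0.0545 without WT replicates 3 and 4). None was called lower. Of the relatives and partners of Txnip, only Txnrd1 was called of 5 tested, and it was called higher. Txnrd1 is a gene that the null livers are named as lacking. Its difference was 2.11 at the probe set above background, and 0.78 over the mean of all its probe sets. The others read 1.66 to 2.26 over all arrays, below the low-value limit. Txn1, the thioredoxin that Txnip binds, averaged 11.97 ± 0.07 and 12.38 ± 0.09. All its null values were above all WT values, and it was not called (limma adjusted p = 0.146). Arrdc4, the nearest arrestin-domain relative regulated by glucose, averaged 4.86 ± 0.53 and 4.53 ± 0.13 (limma adjusted p = 0.477). Of 19 RGS genes listed beside Rgs16, 6 passed the filter and none was called, nor passed an unadjusted p of 0.05 (0 of 6), with a median difference of 0.03. Rgs1 averaged 3.91 ± 0.29 and 3.66 ± 0.38, and Rgs2 5.61 ± 0.56 and 5.97 ± 0.76.

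Of the list of genes around insulin signalling and SREBP-1c, Srebf1 and Irs2 were called lower of 7 tested, and the latter is a gene that insulin represses. Srebf1, whose product SREBP-1c drives lipid synthesis beside ChREBP, fell 2.52-fold, from 9.46 ± 0.32 to 8.12 ± 0.43 (SD, n = 4 each; limma adjusted p = 0.012), with an adjusted p of 0.0631 without WT replicates 3 and 4. Irs2, an insulin receptor substrate that fasting raises, fell 2.37-fold (adjusted p = 0.0356, and 0.0513 with no filter on low values), a call lost without WT replicate 1, 3 or 4 or null replicate 1, 2 or 3 (up to 0.108). Of the fasting-induced genes, 2 of 11 were called, also lower. Angptl4, an inhibitor of lipoprotein lipase, fell 4.08-fold (8.83 ± 0.46 to 6.81 ± 0.97; adjusted p = 0.0223), and Pck1, of gluconeogenesis, fell 2.35-fold (11.52 ± 0.41 to 10.29 ± 0.44; adjusted p = 0.027). The call of Angptl4 was lost without WT replicate 3 or 4 or null replicate 1 or 2 (up to 0.0681), and that of Pck1 without WT replicate 2 or 3 or null replicate 1 or 2 (up to 0.0788). Over the mean of all its probe sets the Pck1 difference was -0.61 and not called (adjusted p = 0.0695), against -1.23 at the brightest. With 1 array left out, 0 to 4 fasting-induced genes were called lower, and with the replicate block 4 were, the others being G6pc and Igfbp1 (adjusted p = 0.00218 and 0.0364). Without both WT replicates 3 and 4, Irs2, Angptl4 and Pck1 were not called (0.161, 0.134 and 0.0558). The genes called lower on these lists included genes of the fed and of the fasted response, with each of these calls lost without both WT replicates 3 and 4. Of the 11 fasting-induced genes, 9 differences were below 0, while Fgf21 (3.19) and Ppargc1a (0.30) were higher and not called. The part of the feeding state was not tested.

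**Figure D4:**
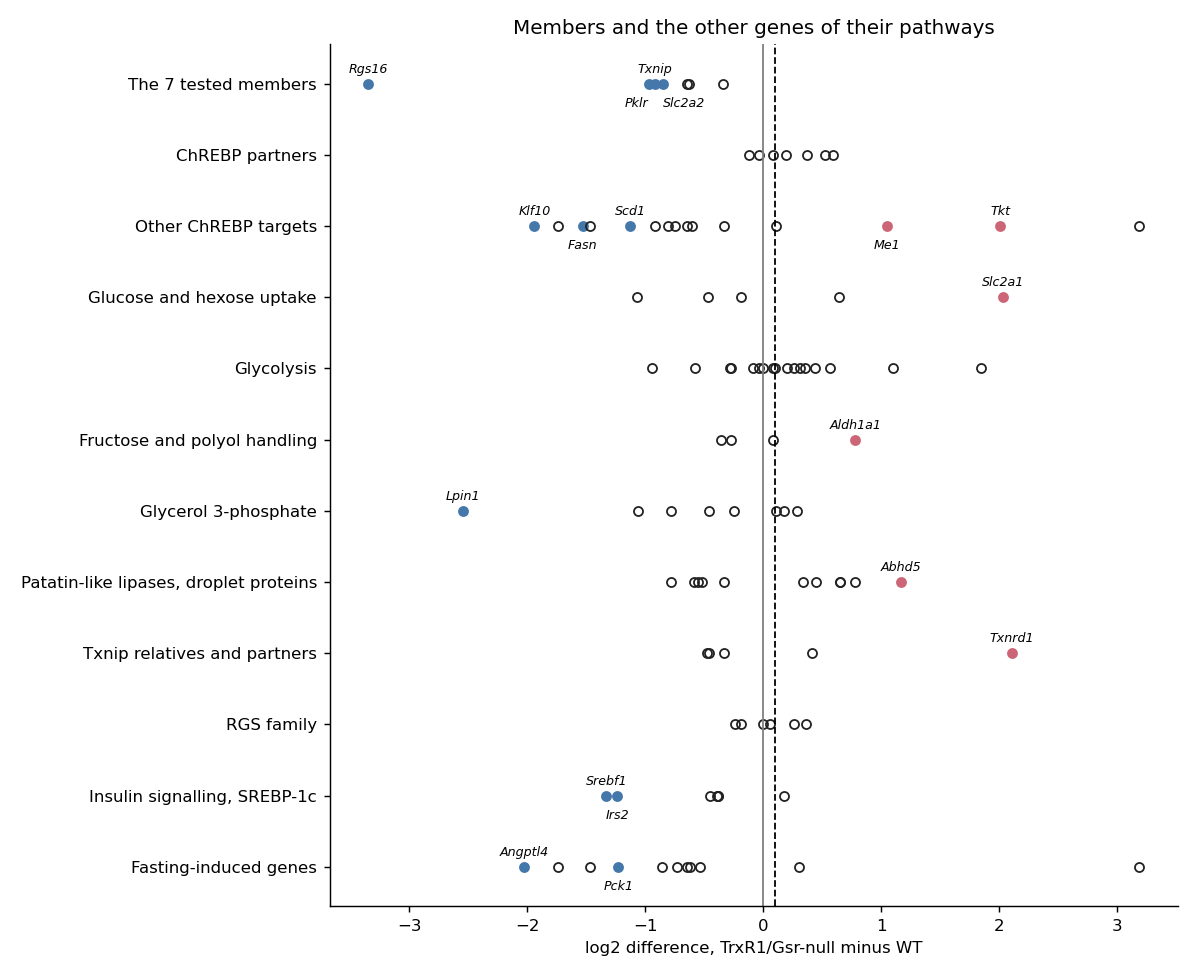
Log2 difference, TrxR1/Gsr-null minus WT (horizontal axis), of the 7 tested members (top) and of the genes of 11 lists. Filled points were called (blue lower, red higher, with names) and open points were not. The solid line is 0 and the dashed line the median of all genes, 0.10. The members lie to the left of 0, and no glycolysis, ChREBP partner or RGS gene was called.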

How the data were processed

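Total RNA of 8 livers was hybridised to 1 Affymetrix array each. The authors made the values with GCRMA, per the submitters' processing notes, and the deposited table holds 1 log2 value per probe set and array (0.53 to 14.61, array medians 3.56 to 3.78). The log2 scale was read from the values. The sources used here give no GCRMA settings or version, and GCRMA pulls values near background together.

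Of 22690 probe sets, 20380 are paired with 1 gene symbol, 691 with several, 1555 with none and 64 are controls. Symbols were updated by gene identifier (20351 matched) with a RefSeq table of GRCm38.p6. The probe set with the highest mean stood for a gene, with _x_at probe sets set aside where another kind existed. Genes in the lowest 40% by mean (limit 3.38) were left out unless 4 arrays exceeded it, leaving 7534 of 12393. The null minus WT difference was fitted by limma 3.58.1 (R 4.3.3) with lmFit and eBayes on all genes together, two-sided, with Benjamini-Hochberg adjustment and calls below 0.05, and the script was tested on simulated data. Members and lists were chosen with earlier results of these data known. Named genes are the members, the 2 nearest patterns of each, and per list up to 4 called genes per direction or, with none called, the first 2; other named list genes were chosen after their values were seen.

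Deviations from the group means of same-numbered arrays correlated at 0.214 to 0.374 at all 4 replicate numbers. The labels state no pairing, and arrays of different number were not compared. Whether the numbers mark pairs or follow the split of replicates 1 and 2 against 3 and 4 was not tested. A replicate block was therefore among the alternatives. Other alternatives were the filter, the probe sets, the scaling, the prior, array weights, a block of replicates 1 and 2 against 3 and 4, and leaving out arrays. The number of arrays limits the precision.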

Additional observations from a re-analysis of the deposited data

Results flagged for a closer look

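In 4 of 100 groups of 4 arrays examined, 1 array stood apart from the other 3 by a gap that, as a share of the group's range, was above Dixon's 95% critical value. Chance gives about 5% of groups. Among the members this was a Gpd1 probe set below the low-value limit, where WT replicate 4 read 2.52 and the others 2.76 to 2.80. Txnrd1 read 9.56 in WT replicate 4 against 9.88 to 9.93. Rgs1 read 4.22 in TrxR1/Gsr-null replicate 4 against 3.42 to 3.53. Agt, the pattern nearest to Slc2a2, read 10.84 in TrxR1/Gsr-null replicate 3 against 10.42 to 10.45.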

How the results depend on the processing

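The count of 4 members called lower was the same, or 5 with array weights, under every other filter, choice of probe sets, scaling, prior and block tried. It was 2 within replicates 1 and 2, 1 within replicates 3 and 4, 1 without WT replicates 3 and 4, and 1 to 4 with 1 array left out. No member was called higher in any setting. The block by replicate number, which the labels do not state to mark pairs, left 4 members called lower and 0 higher. It left 454 genes called higher and 240 lower, and changed no member's call. Of the list genes it left 6 called higher and raised those called lower from 8 to 12.

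With array weights, the block of replicates 1 and 2 against 3 and 4, replicates 3 and 4 alone, and WT replicates 3 and 4 left out, the genes called higher numbered 578, 647, 162 and 187. The genes called lower numbered 428, 334 and 30 in the first 3 of these and 272 after quantile normalization. With 1 array left out, 196 to 387 were higher and 75 to 134 lower. Of the list genes, 10 were called higher with array weights. Those called lower numbered 14 after quantile normalization, 13 with a trended and robust prior, 23 with array weights, 17 with the block of replicates 1 and 2 against 3 and 4, 13 within replicates 1 and 2, 2 within replicates 3 and 4 and 4 without WT replicates 3 and 4, and 4 to 10 with 1 array left out (5 to 7 higher).

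The differences of the members that were then not called were, within replicates 1 and 2, within replicates 3 and 4 and without WT replicates 3 and 4 in turn, -0.81, -1.13 and -0.69 for Pklr and -0.93, -0.91 and -0.84 for Txnip. For Slc2a2 they were -0.78 within replicates 3 and 4 and -0.70 without WT replicates 3 and 4. With 1 array left out, Pklr ran from -1.13 to -0.85, Txnip from -1.06 to -0.83 and Slc2a2 from -0.99 to -0.75. Khk was called with array weights (-0.76).

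Without WT replicates 3 and 4 the sign turned for Gpd1 (0.11), Mlx (-0.22), Mlxip (0.06), Hk2 (-0.31), Rgs2 (-0.11) and Cyp4v3 (0.00), none called in either setting. Mlx was also negative within replicates 1 and 2 (-0.09), Mlxip positive with array weights (0.03), and Hk2 negative with array weights (-0.29) and within replicates 1 and 2 (-0.21). With 1 array left out, Mlxip ran from -0.11 to 0.06 and Hk2 from -0.15 to 0.27. The cause was not tested. Quantile normalization moved the median difference of all genes from 0.10 to -0.01. Values below about 3.38 cannot be told from background, which limits Pnpla3, 2 Gpd1 probe sets and the faintest Rgs16 probe set in the null livers.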

Other observations

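Several genes beside the members were not called in the fit as reported but had wide differences, and were chosen after their values were seen. Fgf21, a hormone that liver secretes, read 3.82, 1.66, 2.24 and 2.11 in WT and 4.35, 4.78, 4.33 and 9.13 in the null livers. The groups did not overlap, but the WT mean was below the low-value limit and null replicate 4 stood far above the rest (limma adjusted p = 0.0834). Without null replicate 4, 1 fasting-induced gene was called higher, against 0 in the fit as reported. The other ChREBP targets called higher were then 3, against 2. Array weights gave the same counts, and Fgf21 is on both lists. G6pc, which releases glucose from its phosphate, read 9.68, 10.69, 11.61 and 12.10 in WT and 8.16, 8.58, 9.87 and 10.51 in the null livers. The groups overlapped and G6pc was not called (limma adjusted p = 0.119), but the null array was lower at each of the 4 replicate numbers. With the replicate block G6pc was called (difference -1.74, limma adjusted p = 0.00218), though the labels do not state that same-numbered arrays are pairs. Pdk4, a kinase that shuts off pyruvate dehydrogenase, averaged 5.43 ± 0.80 and 7.28 ± 0.96 without overlap (SD, n = 4 each; adjusted p = 0.0562).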
